A study of Mus musculus with 12 samples.

Results

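The integrated stress response and the cytosolic aminoacyl-tRNA synthetases were followed as a set of 35 genes, of 18771 in the deposited table. They were taken by gene symbol and comprise 13 factors and targets of the ATF4 pathway, the 2 eIF2 kinases Eif2ak3 and Eif2ak4, and 20 synthetases of the cytosol. The study asked what Pfas, an enzyme of de novo purine synthesis, does in cardiac fibroblasts in vivo. RNA sequencing was done on fibroblasts of the left ventricle taken 3 days after myocardial infarction caused by tying off a coronary artery, the left anterior descending. All mice carried a tamoxifen-inducible Cre at Pdgfra, a gene expressed in fibroblasts. The 6 control libraries had the genotype PDGFRa CreER/+;Pfas fl/+, with 1 floxed Pfas allele, and the 6 knockout libraries (Pfas CKO) had PDGFRa CreER/+;Pfas fl/fl. The labels state for Pfas CKO mice that tamoxifen was injected on 3 occasions, 7 days ahead of infarction, 3 days ahead of it and on the day after. Strain, age and the treatment of control mice were not given in the sources used here. Tamoxifen and genotype therefore cannot be told apart.

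A family of kinases senses different stresses and phosphorylates the translation initiation factor eIF2, which slows protein synthesis in general and lets the mRNA of the transcription factor ATF4 be translated. PERK, the product of Eif2ak3, responds to unfolded protein in the endoplasmic reticulum, and GCN2, the product of Eif2ak4, responds to uncharged tRNA when amino acids are short. ATF4 then acts with C/EBP partners on genes for amino acid supply and for the synthetases that load each amino acid on its tRNA, and on CHOP (Ddit3) and GADD34 (Ppp1r15a), the latter a phosphatase subunit that reverses the phosphorylation of eIF2. ATF4 is regulated to a large part at translation, which mRNA levels do not show.

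Libraries held 20320133 to 20950074 estimated counts, and levels are given as CPM (counts scaled to a common library size) after the trimmed mean of M values (TMM). The libraries fell into near-identical sets, namely control 1 to 3, control 4 to 6 and Pfas CKO 1, 3, 5 and 6, while Pfas CKO 2 and 4 stood alone. The chi-square of a pair of libraries, averaged over genes, was 1.68 to 5.22 within a set, 17.5 to 39.9 across sets of a group and 169 to 253 between groups. Nothing in the labels says that libraries came from separate mice, so each p-value reflects the spread of these 12 libraries, part or all of which may be technical. The control sets also differ in which genes are blank, and processing and genotype cannot be told apart. Pfas itself was at 22.4 to 24.9 CPM in control and fell to 48.2% of that level on average in Pfas CKO, where CKO 2 and 4 kept 17.4 and 14.5 CPM and the other libraries 8.01 to 9.66 CPM (edgeR, adjusted p = 2.26e-05). Summed fibroblast markers were at 21163 to 24583 CPM in control and at 19128 to 21634 CPM in Pfas CKO, and 8 of 12 rose and 4 fell. Other markers also moved with the groups. Summed macrophage markers were at 9536 to 10176 CPM and 9858 to 12125 CPM (8 higher and 5 lower of 16), and neutrophil markers at 235 to 258 CPM and 139 to 237 CPM (4 higher and 2 lower of 10, with Retnlg, Ngp and Camp too low to test). Summed endothelial markers were at 712 to 756 CPM and 742 to 961 CPM, with 6 of 8 higher and 2 lower. Mural cell markers were at 199 to 222 CPM and 205 to 286 CPM (4 higher and 1 lower of 6), and lymphocyte markers at 4.11 to 5.12 CPM and 3.86 to 6.23 CPM (1 higher of 8, with 5 too low to test, Cd3e and Cd3d among them). Cardiomyocyte markers were at 14.5 to 16.3 CPM and 38.1 to 44.6 CPM (7 of 8 higher, with Ryr2 too low to test), and erythrocyte markers at a median of 9.26 CPM and 182 CPM (5 of 6 higher, with the other too low to test). Immediate early and dissociation genes, which cell isolation can induce, were at 4683 to 4832 CPM and 7902 to 8608 CPM, with 20 of 24 higher and 1 lower. All of these marker counts stand beside 33.4% of all genes tested that were higher and 35.2% that were lower. The part of the marker differences in the results on stress genes and synthetases was not tested. In such bulk RNA, fewer cells of a type and less RNA per cell cannot be told apart.

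All 35 genes had a value in every library and passed the filter on low counts. Over all 13600 genes tested, 68.6% were called at an adjusted p under 0.05 (edgeR quasi-likelihood test, Benjamini-Hochberg), 33.4% higher and 35.2% lower in Pfas CKO, so a call is close to the usual state of a gene here. Of the 35 genes, 11 were called higher, 15 lower and 9 were not called. The median log2 fold change was -0.11, beside -0.02 over all genes tested. The groups did not overlap for 47.1% of all genes, 23.2% with Pfas CKO above and 23.9% with Pfas CKO below, and for 21 of the 35, 10 above and 11 below. The shares of called genes are thus near those of the table, and the description that follows is of which genes went which way. Scaling by library totals alone moved the median of all genes to -0.26 and the calls over the table to 2775 higher and 7202 lower from 4545 and 4785. These are 20.4% higher and 53% lower. Every direction below is relative to the TMM scale. With near-identical libraries summed, 18.3% of genes were higher and 18.9% lower. A fold of at least 1.5 beside the adjusted p was met by 31.1% of all genes and by 8 of the 35, 3 of them higher and 5 lower.

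**Figure D1:**
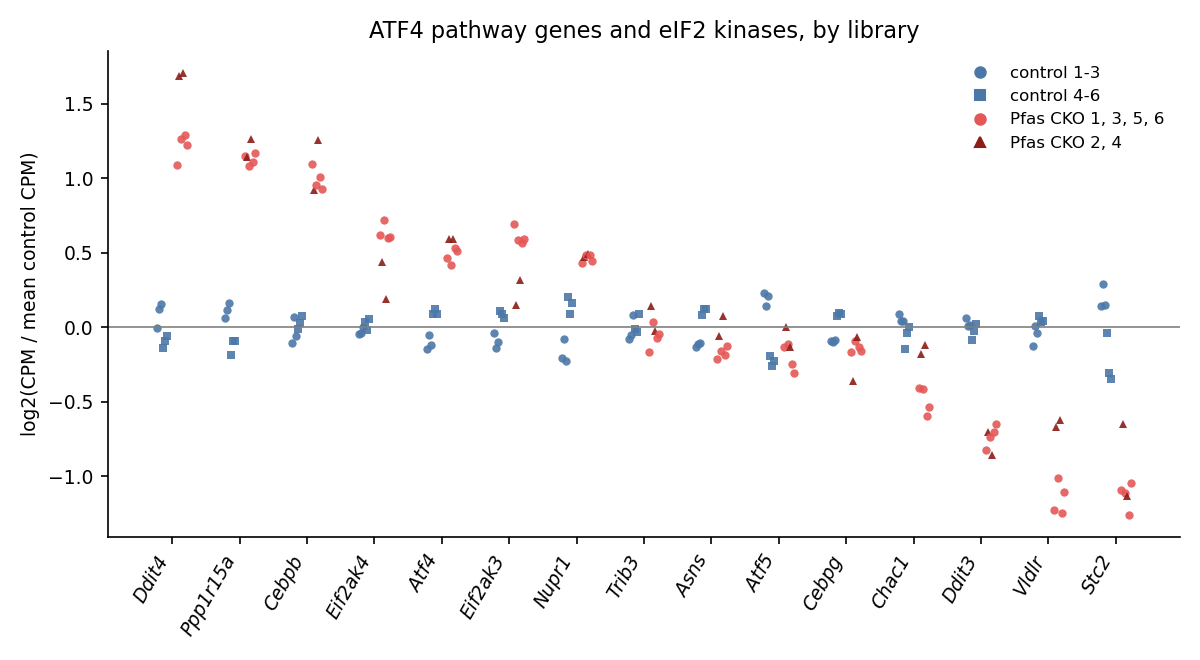
Level of each ATF4 pathway gene and eIF2 kinase in each library, as log2 of its CPM over the mean control CPM (vertical axis), with genes in order of fold change along the horizontal axis. Each point is a library, blue for control and red for Pfas CKO, with squares for control 4 to 6 and triangles for Pfas CKO 2 and 4. Ddit4, Ppp1r15a and Cebpb are above control in each Pfas CKO library, and Stc2, Vldlr and Ddit3 are below control in each.

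Among the ATF4 pathway genes, 5 of 13 rose (Ddit4, Ppp1r15a, Cebpb, Atf4 and Nupr1), 5 fell (Stc2, Vldlr, Ddit3, Chac1 and Cebpg) and 3 were not called (Trib3, Asns and Atf5), with a median log2 fold change of -0.11. Pfas CKO lay above control in every library for the 5 that rose, and below it for 3 of the 5 that fell. Without overlap, 23.2% of all genes lay above control and 23.9% below it. Over all genes 33.4% were called higher and 35.2% lower, so the counts of calls are near the background. Nothing is read from the calls or from the overlap of libraries about the pathway. Of its textbook readouts, Atf4 and Ppp1r15a were higher, Ddit3 and Chac1 lower, and Asns and Trib3 missed the threshold. Scaling by library totals left 5 higher and made 8 lower, beside 20.4% and 53% of all genes. With near-identical libraries summed, so that 2 control and 3 Pfas CKO values remained, 5 were higher and 3 lower. In that fit 18.3% of all genes were higher and 18.9% lower.

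Atf4 (chr15:80255184-80257541, plus strand, GRCm38) encodes the central transcription factor of the response. It was at 326, 366 and 392 CPM in control (lowest, median and highest of 6 libraries) and at 483, 518 and 543 CPM in Pfas CKO. The groups did not overlap, and control 1 to 3 (326 to 348 CPM) lay below control 4 to 6 (383 to 392 CPM). The log2 fold change was 0.52 (SE 0.06, adjusted p = 9.64e-07), and it was 0.42 without control 1 to 3 and 0.62 without control 4 to 6. Ddit3 (chr10:127290774-127296288, plus strand), which encodes CHOP, a factor tied to cell death under lasting stress, went the other way. Its level was 48.4, 51.7 and 53.6 CPM in control and 28.3, 31.2 and 32.6 CPM in Pfas CKO, with no overlap and little spread within either group. Ddit3 fell by 0.74 on the log2 scale (SE 0.05, adjusted p = 2.54e-09). In GENCODE M21, 68 exonic bases of Ddit3 overlap the synthetase gene Mars on the opposite strand, and since the strand setting is not given, their reads there cannot be told apart. Another protein-coding entry of the name Ddit3 shares 105 exonic bases with it on the same strand.

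A check that does not rest on the model gave the same split. In two-sided exact permutation tests over the 12 libraries, the difference in log2 CPM was 0.52 for Atf4 and -0.74 for Ddit3, each with p = 0.00216, the smallest that 924 permutations can give (0.00433 adjusted over the 4 genes tested). For Asns it was -0.11 (exact p = 0.126, adjusted 0.167) and for Trib3 -0.02 (exact p = 0.688, adjusted 0.688). The permutations treat near-identical libraries as independent. With those summed, the smallest p that the 5 values allow is 0.1, and Atf4 and Ddit3 both reached it.

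The other transcription factors and regulators also divided. Cebpb (chr2:167688915-167690418, plus strand) encodes C/EBP beta, a factor of inflammatory and stress genes that can pair with ATF4. It stood at 245, 265 and 277 CPM in control and at 498, 519.8 and 628 CPM in Pfas CKO, so the lowest knockout library was well above the highest control. Its log2 fold change was 1.03 (SE 0.06, adjusted p = 8.99e-10). It shares 312 exonic bases with Tmem189 on the opposite strand. Nupr1, a small stress-induced chromatin protein, rose by 0.47 on the log2 scale, from 31.2 to 41.9 CPM in control to 49.1 to 51.1 CPM in Pfas CKO. The fold of Nupr1 was 0.31 without control 1 to 3 and 0.64 without control 4 to 6, on the log2 scale. Cebpg, whose product is another C/EBP partner of ATF4, fell by 0.16 (adjusted p = 0.0256). Its libraries overlapped, and the call was lost without control 4 to 6 (adjusted p = 0.343) and with near-identical libraries summed (adjusted p = 0.315), in a range of adjusted p up to 0.343 over all alternatives. It was also lost without any 1 of control 4, 5 and 6, with adjusted p from 0.0519 to 0.0570. Atf5, an ATF4-related factor itself controlled at translation, differed by -0.15 (adjusted p = 0.159), and its value was 0.07 without control 1 to 3 and -0.35 without control 4 to 6. Trib3, a pseudokinase induced by ATF4 and CHOP that restrains ATF4, was at 23.9 to 26.8 CPM in control and at 22.4 to 27.8 CPM in Pfas CKO, a log2 fold change of -0.02 (SE 0.06).

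Among the effectors, Ddit4 and Ppp1r15a had the largest log2 fold changes of the 35 genes. Ddit4 (chr10:59949669-59951834, minus strand) encodes REDD1, an inhibitor of mTORC1. It was at 55.3, 59.7 and 67.8 CPM in control and at 129.6, 148 and 199 CPM in Pfas CKO, and the highest values were those of CKO 2 and CKO 4. Its log2 fold change was 1.39 (SE 0.10, adjusted p = 1.31e-08). Ppp1r15a (chr7:45522916-45526268, minus strand) encodes the stress-induced eIF2 phosphatase subunit GADD34. It was at 161, 182 and 205 CPM in control and at 388, 406 and 441 CPM in Pfas CKO. The groups were far apart, and the log2 fold change was 1.15 (SE 0.06, adjusted p = 2.71e-10).

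Stc2 and Vldlr fell most among the ATF4 pathway genes, followed by Ddit3. Stc2 (chr11:31357307-31370074, minus strand) encodes stanniocalcin 2, a secreted glycoprotein. It was scarce, at 4.91, 6.48 and 7.62 CPM in control and at 2.60, 2.90 and 3.97 CPM in Pfas CKO, and the groups did not overlap. Stc2 fell by 1.03 on the log2 scale (SE 0.13, adjusted p = 5.43e-06). Vldlr (chr19:27216484-27254231, plus strand) encodes the very low density lipoprotein receptor. Its level was 42.0, 46.6 and 48.3 CPM in control and 19.4, 22.0 and 29.8 CPM in Pfas CKO, with CKO 2 and 4 the highest of the knockout libraries. Vldlr fell by 0.96 on the log2 scale (SE 0.10, adjusted p = 5.95e-07), and by 1.16 without CKO 2 and 4. Chac1, which encodes an enzyme that degrades glutathione and is a common marker of ATF4 activity, fell by 0.37 (adjusted p = 0.000687). Its groups overlapped, at 34.9 to 41.0 CPM and 25.5 to 35.5 CPM, and the call was lost with near-identical libraries summed, where the log2 fold change was -0.26 and the adjusted p of 0.170 was the highest of all alternatives. Asns, which encodes asparagine synthetase, was at 151 to 180.2 CPM in control and at 143 to 174 CPM in Pfas CKO, a log2 fold change of -0.11 (adjusted p = 0.148). Its value depended on which control set was used, -0.22 without control 1 to 3 (adjusted p = 0.00895) and 0.01 without control 4 to 6 (adjusted p = 0.917), in a range of adjusted p from 1.27e-05 to 0.917 over all alternatives. Without CKO 4 alone it was -0.16 (adjusted p = 0.0263).

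Both eIF2 kinases in the set rose, beside 33.4% of all genes. Eif2ak4 (chr2:118388618-118475234, plus strand), the gene of GCN2, was at 19.0, 19.5 and 20.4 CPM in control and at 22.4, 29.8 and 32.2 CPM in Pfas CKO. The control libraries lay within a narrow band, and CKO 2 and CKO 4, at 26.6 and 22.4 CPM, were the nearest to it. The log2 fold change of Eif2ak4 was 0.54 (SE 0.08, adjusted p = 1.38e-05). Eif2ak3, the gene of PERK, rose by 0.50 from 31.2 to 37.2 CPM in control to 38.3 to 55.8 CPM in Pfas CKO, where CKO 2 and 4 were again the lowest. Its call was lost with near-identical libraries summed, with a log2 fold change of 0.38 and an adjusted p of 0.0758, and with TPM in place of counts (0.20, adjusted p = 0.0548), while library totals kept both kinases as calls. Eif2ak3 shares 485 exonic bases with Gm43292 on the opposite strand.

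The remaining machinery of eIF2 was listed as 13 genes, of which 5 rose and 5 fell, beside 33.4% and 35.2% of all genes. Their median log2 fold change was 0.03. Eif2ak2, the gene of the double-stranded RNA kinase PKR, fell by 0.78 (SE 0.07, adjusted p = 8.54e-08), from 69.0 to 74.4 CPM in control to 34.3 to 47.2 CPM in Pfas CKO. Eif2ak1, another eIF2 kinase gene, fell by 0.19 (SE 0.06, adjusted p = 0.00825), with libraries that overlapped. The eIF2 kinase genes thus did not share a direction. Eif2b3, which encodes a subunit of eIF2B, the exchange factor that recycles eIF2, fell by 0.77 (SE 0.07, adjusted p = 8.44e-08). Ppp1r15b, the constitutive counterpart of Ppp1r15a, rose by 0.59 (SE 0.06, adjusted p = 2.15e-07), from 247 to 275 CPM to 349 to 445 CPM. Genes of both eIF2 phosphatase subunits were thus higher. With near-identical libraries summed this list had 3 higher and 2 lower, beside 18.3% and 18.9% of all genes. With library totals it had 2 and 7, beside 20.4% and 53%.

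The promoters of these genes were read for the core of the C/EBP-ATF response element, through which ATF4 and a C/EBP partner bind, taken as TGATGNAA on either strand, and for the palindrome TGACGTCA of the cyclic AMP response element, which ATF and CREB factors bind and which reads the same on both strands. The 2 motifs cannot overlap in the same bases. Sequences are from RefSeq on GRCm38.p6, which held a promoter for 28 of the 35 genes, the others being Wars, Nars, Cars, Hars, Lars, Rars and Vars. Of the 28, 7 had TGATGNAA within 250 bases before an annotated start, namely Asns, Chac1, Nupr1, Vldlr, Aars, Gars and Tars. Counted by promoter, these are 4 of 15 for the ATF4 pathway (26.7%), 3 of 13 for the synthetases (23.1%) and 0 of 3 for the kinases, beside 2.06% of 13823 promoters of the genes tested. A match is a description of the letters and not a bound site. Ppp1r15a alone among the members held TGACGTCA, beside 2.39% of the promoters of genes tested. Its match begins 12 bases before the start. The promoters of Ppp1r15a (chr7:45526269-45526518, minus strand) and of Vldlr (chr19:27216770-27217019, plus strand), which had large changes in opposite directions, are shown over 250 bases, 5′ to 3′, with the matched letters in capitals.
Ppp1r15a: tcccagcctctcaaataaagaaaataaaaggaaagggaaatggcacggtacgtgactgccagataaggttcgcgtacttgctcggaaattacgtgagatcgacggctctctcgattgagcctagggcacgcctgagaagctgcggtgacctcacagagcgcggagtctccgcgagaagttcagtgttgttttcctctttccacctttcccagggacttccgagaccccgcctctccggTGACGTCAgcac
Vldlr: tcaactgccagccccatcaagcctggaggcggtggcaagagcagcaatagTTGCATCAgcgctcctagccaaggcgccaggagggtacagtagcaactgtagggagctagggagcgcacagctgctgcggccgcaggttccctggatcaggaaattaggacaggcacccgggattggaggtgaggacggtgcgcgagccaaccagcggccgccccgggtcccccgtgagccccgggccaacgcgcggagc

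The other 6 matches, chosen after the search, are shown in windows of 60 bases so that the element can be compared between genes, again with the matched letters in capitals and each in the direction of its gene. They lie at chr2:119351023-119351082 on the plus strand for Chac1, at chr7:126625547-126625606 on the minus strand for Nupr1 and at chr6:7693210-7693269 on the minus strand for Asns. Those of the synthetases lie at chr8:111033704-111033763 on the plus strand for Aars, at chr6:55037941-55038000 on the plus strand for Gars and at chr15:11399659-11399718 on the minus strand for Tars.
Chac1: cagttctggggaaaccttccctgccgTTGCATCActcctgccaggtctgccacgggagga
Nupr1: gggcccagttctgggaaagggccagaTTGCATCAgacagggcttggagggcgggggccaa
Asns: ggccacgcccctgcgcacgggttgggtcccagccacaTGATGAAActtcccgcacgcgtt
Aars: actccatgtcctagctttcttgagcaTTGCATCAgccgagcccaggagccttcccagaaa
Gars: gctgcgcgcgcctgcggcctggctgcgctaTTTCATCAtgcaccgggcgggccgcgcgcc
Tars: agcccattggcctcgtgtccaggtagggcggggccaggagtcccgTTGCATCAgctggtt
The same core in the same orientation stands in Vldlr, Chac1, Nupr1, Aars and Tars, which read TTGCATCA, while Gars has TTTCATCA and Asns the reverse orientation. Genes that hold it did not share a direction. Nupr1 and Aars were higher, Chac1 and Vldlr lower, and Asns, Gars and Tars were not called.

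The 20 cytosolic synthetases were more often lower than higher. Of these, 10 fell, 4 rose and 6 were not called, beside 35.2% of all genes lower and 33.4% higher. Their median log2 fold change was -0.19 beside -0.02 over all genes, and the folds ran from -0.80 for Vars to 0.23 for Cars. Pfas CKO lay below control in every library for 8 of them and above it for 3, beside 23.9% and 23.2% of all genes. The rises were small, at most 0.23, and all 4 turned below 0 when libraries were scaled by their totals. There 0 were higher and 16 lower, beside 20.4% and 53% of all genes. With near-identical libraries summed, 4 of the 20 remained as calls, all lower (Vars, Dars, Farsb and Lars). This is near the 18.9% of all genes that were lower in that fit.

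**Figure D2:**
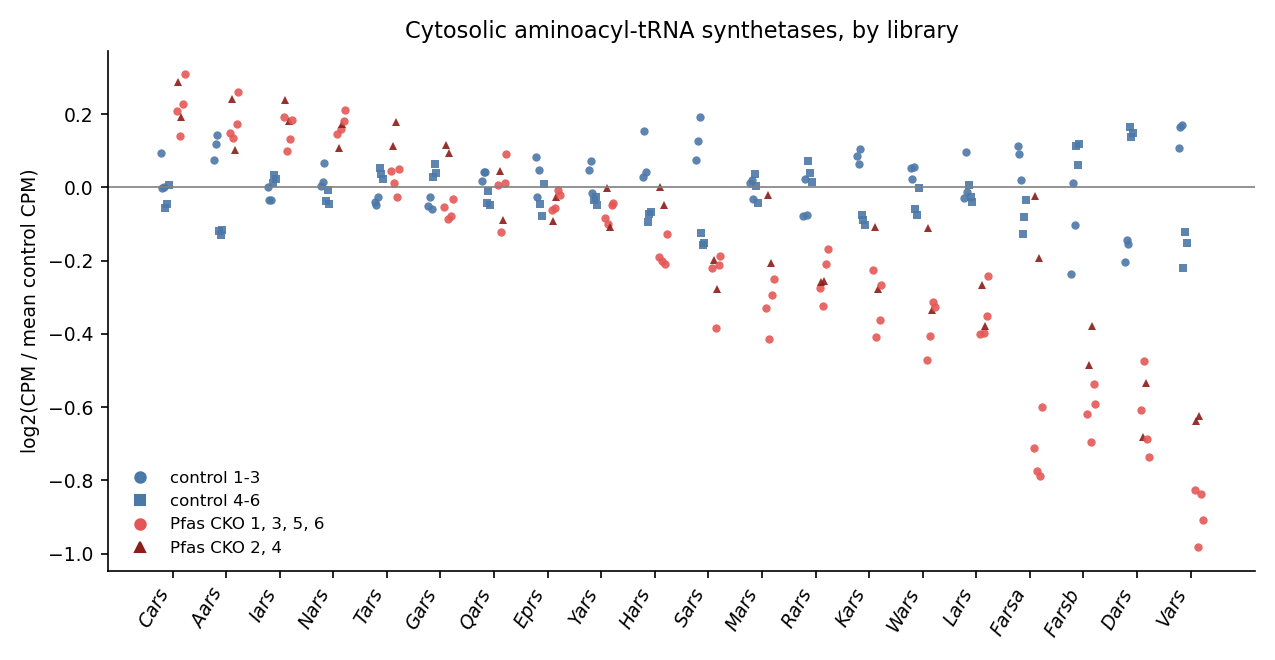
Level of each cytosolic synthetase gene in each library, as log2 of its CPM over the mean control CPM (vertical axis), with genes in order of fold change along the horizontal axis. Each point is a library, blue for control and red for Pfas CKO, with squares for control 4 to 6 and triangles for Pfas CKO 2 and 4. Vars, Dars and Farsb are below control in each Pfas CKO library, while Nars, Iars and Cars are slightly above it.

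Vars (chr17:35000987-35016322, plus strand), the valyl-tRNA synthetase, fell most. It was at 57.8, 67.1 and 75.7 CPM in control and at 34.1, 37.8 and 43.7 CPM in Pfas CKO. The control sets differed, with control 1 to 3 at 72.4 to 75.7 CPM and control 4 to 6 at 57.8 to 61.8 CPM, yet both lay above every Pfas CKO library. Vars fell by 0.80 on the log2 scale (SE 0.08, adjusted p = 6.82e-07). Dars (chr1:128363707-128417368, minus strand) charges tRNA with aspartate, an amino acid that also donates nitrogen in purine synthesis. It was at 50.4, 58.2 and 65.0 CPM in control and at 34.8, 37.1 and 41.8 CPM in Pfas CKO, a fall by 0.62 (SE 0.08, adjusted p = 3.88e-06). Here the control sets stood in the opposite order from Vars, with control 4 to 6 the higher.

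Phenylalanyl-tRNA synthetase is built of 2 kinds of subunit, and the genes of both fell. Farsb (chr1:78417975-78488897, minus strand), the beta subunit, was at 38.0, 46.0 and 48.7 CPM in control and at 27.7, 30.3 and 34.5 CPM in Pfas CKO, without overlap. It fell by 0.55 (SE 0.07, adjusted p = 5.10e-06), and 248 of its exonic bases overlap Sgpp2 on the opposite strand. Farsa, the alpha subunit, fell by 0.48 (adjusted p = 0.00222), but its libraries were uneven. CKO 2 and CKO 4 were at 54.4 and 48.3 CPM and the other Pfas CKO libraries at 32.0 to 36.5 CPM, against 50.6 to 59.8 CPM in control. The call of Farsa was lost with near-identical libraries summed (log2 fold change -0.28, adjusted p = 0.249).

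Lars, the leucyl-tRNA synthetase, whose product also serves as a leucine sensor for mTORC1, was at 103.5, 105 and 114 CPM in control and at 80.7, 82.6 and 90.0 CPM in Pfas CKO. It fell by 0.34 (SE 0.05, adjusted p = 9.20e-06). Wars (chr12:108860030-108894174, minus strand), the tryptophanyl-tRNA synthetase, an interferon-inducible gene, was at 63.4, 67.2 and 69.4 CPM and at 48.2, 53.1 and 61.9 CPM. Its fall of 0.32 (SE 0.06, adjusted p = 0.000133) came with libraries that did not overlap, but the call was lost with near-identical libraries summed (adjusted p = 0.115). Rars (chr11:35808381-35834506, minus strand), the arginyl-tRNA synthetase, was at 196, 210.1 and 218 CPM and at 166, 174 and 185 CPM. It fell by 0.25 (SE 0.04, adjusted p = 0.000152) and was also lost as a call with near-identical libraries summed (adjusted p = 0.108).

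The remaining falls were between 0.24 and 0.27 in size, with log2 fold changes of -0.24 for Sars (serine), -0.25 for Mars (methionine) and -0.27 for Kars (lysine). None of the 3 remained a call with near-identical libraries summed, and Sars was also lost without control 1 to 3 (log2 fold change -0.10, adjusted p = 0.0964). The rises were 0.23 for Cars (cysteine), 0.18 for Aars (alanine), 0.17 for Iars (isoleucine) and 0.16 for Nars (asparagine). All 4 rises were lost as calls with near-identical libraries summed, with adjusted p from 0.125 for Cars to 0.311 for Nars. With library totals their log2 fold changes were between -0.07 for Nars and -0.0043 for Cars. Aars was lost without control 4 to 6 as well (0.07, adjusted p = 0.26), and 1326 of its exonic bases are shared with Exosc6 on the same strand. Cars shares 211 exonic bases with the pseudogene Gm15580 on the opposite strand. The 6 that were not called had log2 fold changes from -0.13 for Hars to 0.06 for Tars, with Yars at -0.06, Eprs at -0.04, Qars at -0.01 and Gars at -0.01. Hars was close to the threshold (adjusted p = 0.0561) and passed it, as lower, without any 1 of control 4, 5 and 6 or Pfas CKO 2 and 4 (adjusted p from 0.0183 to 0.0497).

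Neither structural class of the enzymes held all of one direction. Class I and class II synthetases, which differ in the fold of their catalytic domain, each had 2 of 10 higher and 5 of 10 lower, with medians of -0.16 and -0.19. Of the 8 synthetase genes of the multisynthetase complex, a cytosolic assembly, 1 was higher and 5 lower (median -0.25), and of the 12 outside it 3 were higher and 5 lower (median -0.10). Eprs was counted in class I. All of these stand beside 33.4% of all genes higher and 35.2% lower, with a median of -0.02. The difference between these subsets was not tested. The scaffold genes Aimp1, Aimp2 and Eef1e1 were not called, with log2 fold changes of -0.05, -0.06 and 0.02. In levels corrected for transcript length, Nars was the highest synthetase in control, with a median of 486 TPM, the deposited length-corrected unit, and Vars the lowest at 37.7 TPM.

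The mitochondrial synthetases that have a nuclear gene of their own had lower fold changes than most of those of the cytosol. Of 17 genes, 0 rose and 13 fell, beside 35.2% of all genes, and their median log2 fold change was -0.63. Ears2 (glutamate) was at 8.55 to 9.42 CPM in control and at 4.29 to 5.80 CPM in Pfas CKO, a fall by 0.91 (SE 0.08, adjusted p = 1.28e-07). Lars2 (leucine) fell by 0.88 (SE 0.08, adjusted p = 1.29e-07) and Rars2 (arginine) by 1.05 (SE 0.11, adjusted p = 5.22e-07), both with libraries that did not overlap. With near-identical libraries summed, 10 of the 13 remained lower, and with library totals all 13 did. Of the calls over all genes, 57.5% and 81% were kept in these fits, in which 18.9% and 53% of all genes were lower. For 13 amino acids, which are not all that have 1 gene for each compartment, the 2 genes were set side by side. The mitochondrial gene had the lower log2 fold change in 10, and the median difference over the 13 was -0.53, which is a description without a test. The exceptions among these pairs were Mars2, Wars2 and Yars2. Hars and Hars2, on opposite strands, share 195 exonic bases, so their reads there cannot be told apart.

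**Figure D3:**
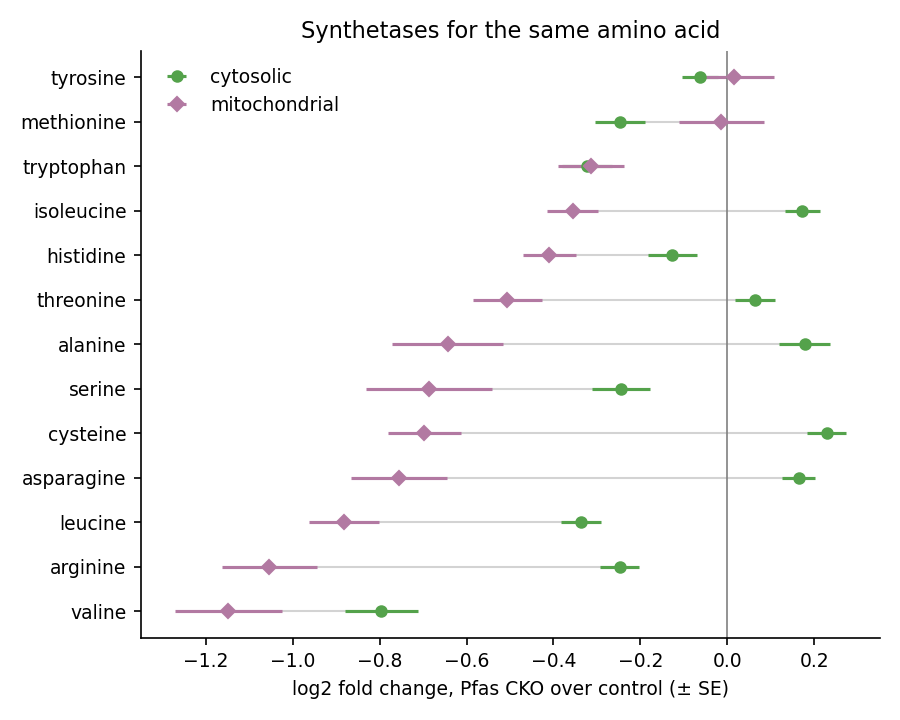
Log2 fold change (Pfas CKO over control) of the cytosolic synthetase gene and the mitochondrial gene of the same amino acid, one row for each of 13 amino acids, with circles for cytosolic and diamonds for mitochondrial genes and bars of 1 SE. The mitochondrial gene is the lower of the pair for 10 of them, and methionine, tyrosine and tryptophan are the exceptions.

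The synthetases and the stress genes were set against each other within each library, as the mean log2 CPM of each group less its mean in control. The synthetase mean was between -0.02 and 0.04 in control and between -0.26 and -0.08 in Pfas CKO. The ATF4 pathway mean was between -0.02 and 0.04 in control and between 0.01 and 0.19 in Pfas CKO, where it averages rises and falls of single genes that are much wider than the mean. Synthetases less stress genes, by these means, was -0.02 to 0.03 in control and -0.33 to -0.20 in Pfas CKO. Its mean was -0.26 ± 0.06 (SD, n = 6) in the latter, and the groups did not overlap. With medians in place of means the groups overlapped. The synthetase median was then -0.04 to 0.02 in control and -0.26 to -0.02 in Pfas CKO. The ATF4 pathway median was -0.08 to 0.04 in control and -0.16 to 0.02 in Pfas CKO, so it did not rise as the mean did. The difference of means is free of a common scaling factor and was between -0.24 and -0.28 over the alternatives for which it was computed. It was not computed for DESeq2, limma-voom, the other filters on low counts, blanks set to 0 or the replicate block. It is given as a description, since the genes were chosen with results of these data known.

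**Figure D4:**
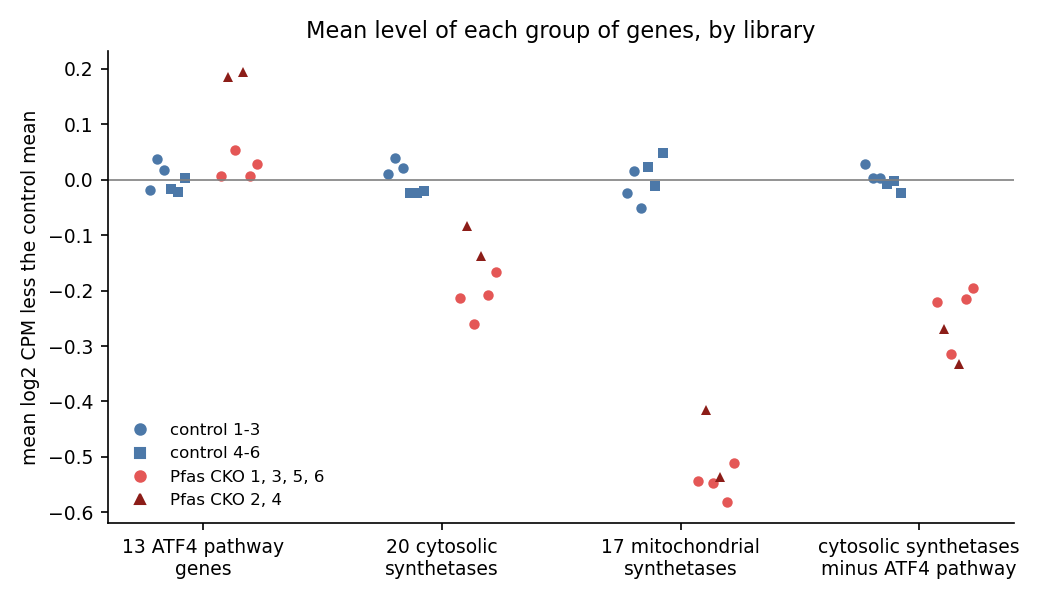
Mean log2 CPM of the ATF4 pathway genes, the cytosolic synthetases and the mitochondrial synthetases in each library, and of the cytosolic synthetases minus the ATF4 pathway genes, each less its control mean (vertical axis, log2). Each point is a library, blue for control and red for Pfas CKO, with triangles for Pfas CKO 2 and 4. The mitochondrial means lie between -0.58 and -0.42 in Pfas CKO, below the cytosolic means of -0.26 to -0.08, and CKO 2 and 4 have the highest stress gene means at 0.19 each.

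Pfas CKO 2 and 4, the libraries with the most Pfas mRNA left, did not lie between control and the other knockout libraries for all members. For Farsa, Vldlr, Chac1, Eif2ak3 and Eif2ak4 they were nearer to control. For Ddit4 they were farther from it, at 196 and 199 CPM, while the other Pfas CKO libraries held 129.6 to 149 CPM and control at most 67.8 CPM. Removing both libraries kept all 26 calls. Immediate early and dissociation genes were also at their highest in CKO 2 and 4, at 8281 and 8608 CPM beside 7902 to 8157 CPM in the other knockout libraries, and neutrophil markers at 237 and 202 CPM beside 139 to 145 CPM. The part of these values in the spread of Ddit4 or Farsa was not tested.

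**Figure D5:**
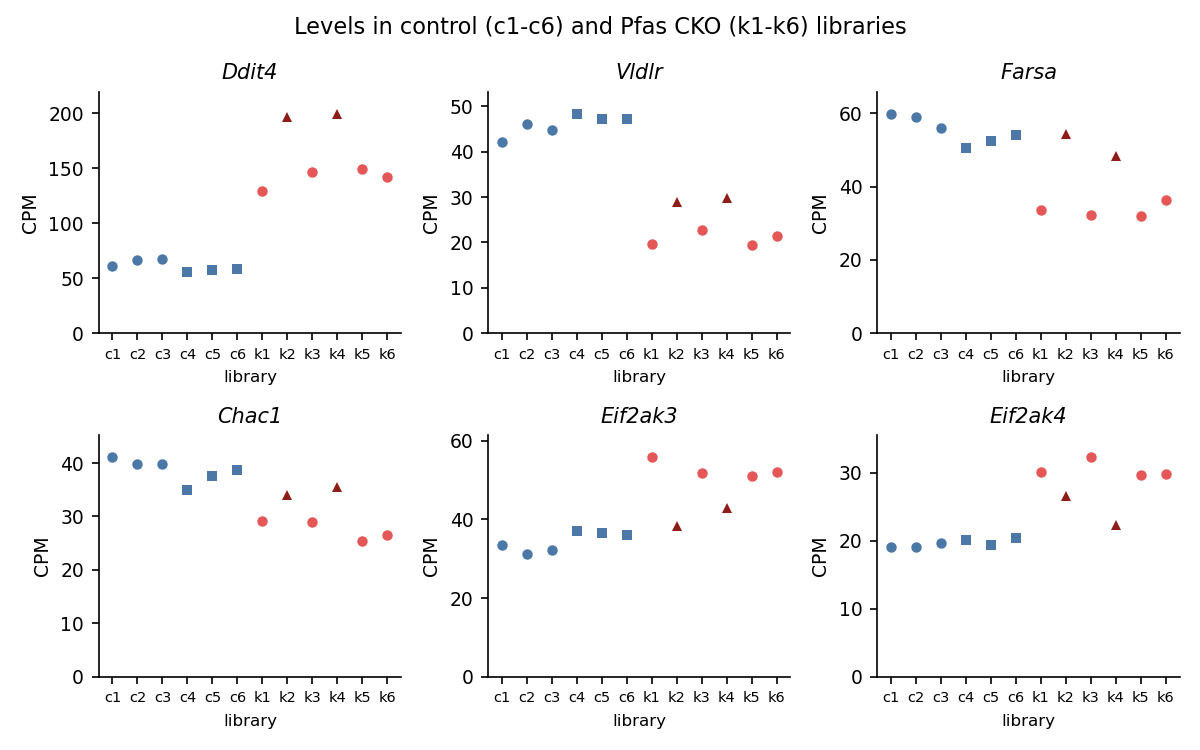
CPM (vertical axis, from 0) of 6 members in which Pfas CKO 2 and 4, drawn as triangles, stood apart, in each library along the horizontal axis (c1 to c6 for control, k1 to k6 for Pfas CKO). Ddit4 is higher in CKO 2 and 4 than in the other knockout libraries, and Farsa in CKO 2 and 4 is close to the control level.

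Beyond the 35 genes, a list of 26 other ATF4 targets, of which Cbs was too low to test, had 12 higher and 9 lower. Over all genes 33.4% were higher and 35.2% lower, and the median log2 fold change of the list was 0.14. The 9 that fell were Cth, Phgdh, Shmt2, Slc7a5, Aldh1l2, Psph, Pck2, Bbc3 and Psat1. Their log2 fold changes ran from -1.56 for Cth to -0.27 for Psat1. The called genes with the smallest p, Atf3, Gdf15 and Slc7a11, were all higher. Atf3, a stress-induced transcription factor, rose by 1.36 (SE 0.05, adjusted p = 1.84e-12). Gdf15, a stress cytokine, rose by 4.12 (SE 0.18, adjusted p = 1.92e-11), from 13.3 to 15.3 CPM in control to 156 to 306 CPM in Pfas CKO. Slc7a11, the cystine transporter, rose by 2.31 (SE 0.11, adjusted p = 4.87e-11), from 288 to 349 CPM to 1367 to 2152 CPM. With near-identical libraries summed the list had 9 higher and 2 lower, beside 18.3% and 18.9% of all genes. With library totals it had 8 and 13, beside 20.4% and 53%.

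The other arms of the unfolded protein response, which act through XBP1 and ATF6 on chaperones of the endoplasmic reticulum, had 8 of 18 genes higher and 3 lower. Over all genes 33.4% were higher and 35.2% lower, and the median log2 fold change of this list was 0.10. Hspa5, the chaperone BiP that holds PERK inactive, rose by 0.89 (SE 0.04, adjusted p = 7.52e-11), from 1084 to 1209.7 CPM in control to 2008 to 2209 CPM in Pfas CKO. Hsp90b1, another chaperone, rose by 0.42 (SE 0.04, adjusted p = 2.57e-07), and Dnajb9, a co-chaperone, by 1.22 (SE 0.14, adjusted p = 1.74e-06). Several chaperone genes were thus higher in the same libraries in which Ddit3, a shared target of this response, was lower. The 3 genes of the list that fell were Pdia4, Xbp1 and Dnajb11, with log2 fold changes of -0.56, -0.20 and -0.12. For each of them Pfas CKO lay below control in every library. With library totals the list had 3 higher and 9 lower, beside 20.4% and 53% of all genes. With near-identical libraries summed it had 5 and 1, beside 18.3% and 18.9%.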

How the data were processed

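Messenger RNA of 12 libraries, 6 control and 6 Pfas CKO, was enriched with oligo(dT) beads from total RNA, per the labels' protocols. The table deposited by the authors gives estimated counts per gene, not normalized, and TPM and FPKM, which the authors scaled in each library, per the file headers. FPKM was not used. The submitters' processing notes name Bowtie2, RSEM and DESeq2 for 9 libraries with no version, no tool for control 1 to 3, and the build GRCm38 for all. The annotation and whether strand was used were not given in the sources used here. Genes blank in any library were left out (1067 of 18771, 774 in the first control set, 743 in the second and 0 in Pfas CKO).

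Estimated counts were rounded. The test was the quasi-likelihood F test of edgeR 4.0.16 (R 4.3.3) after TMM scaling and filterByExpr, with no covariate. Its p-values were adjusted by Benjamini-Hochberg across 13600 genes, with 0.05 as the threshold. The standard error of a log2 fold change is its size over the root of the F value. Log2 CPM had a prior count of 2. The test was checked on simulated data with independent libraries, so that check does not cover the near-identical sets found here. Gene positions and overlaps are from GENCODE M21 on GRCm38, and promoter sequences from RefSeq. Libraries were called near-identical where the mean chi-square per gene, over 12739 genes whose mean count reached 20, was under 10.

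All 35 members are named. Full values are given for called ATF4 pathway genes and kinases with an absolute log2 fold change of at least 0.5. They are also given for the 6 synthetases with the smallest p, and each other pathway list gives its 3 called members with the smallest p. Genes that fell in the lists of other ATF4 targets and of the unfolded protein response are named as well, as is Eif2ak1. Promoters printed over 250 bases are from the 8 members with the largest absolute folds. Not every gene of the mitochondrial synthetase and marker lists is reported here, and 1 pair of synthetase genes was left out of the paired description for that reason. The members, lists and tests were chosen with earlier results of these data known. Alternatives were RLE scaling, library totals, DESeq2 1.42.0, limma-voom and limma-trend (limma 3.58.1) on log2 TPM with a pseudocount of 1 or 0.1, for genes reaching a mean TPM of 1, all genes unfiltered, a floor of 5 CPM on the mean, blanks set to 0, a replicate block, libraries or sets left out, near-identical libraries summed, and other thresholds.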

Additional observations from a re-analysis of the deposited data

Results flagged for a closer look

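A library far from the other 5 of its group was found in 3 of 76 groups checked by Dixon's criterion, for which chance gives about 5%. Cebpg was at 85.8 CPM in Pfas CKO 2, below the next library at 98.6 CPM, the rest reaching 106 CPM. Stc2 was at 3.97 CPM in Pfas CKO 2, above the next at 3.02 CPM. Lars was at 114 CPM in control 2, above the next control library at 107 CPM.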

How the results depend on the processing

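All 26 member calls held with RLE scaling, DESeq2, limma-voom, no filter, and without Pfas CKO 2 and 4, and a minimum of 5 CPM removed Stc2 from the test. Summing near-identical libraries kept 13 of the 26, beside 57.5% of all called genes. It gave 2783 genes higher and 2877 lower, 3 ATF4 pathway genes lower, 1 kinase higher, 0 synthetases higher and 4 lower. In the exact test, Atf4 was then at 0.56 and Ddit3 at -0.76 (p = 0.1, the smallest possible), and Trib3 at 0.018, while the log2 fold change of Trib3 was 0.023 and that of Gars 0.054. Fewer values enter this fit, and the cause was not tested further. Library totals gave 2775 genes higher and 7202 lower, 8 ATF4 pathway genes lower (median -0.34), a kinase median of 0.28, and 0 synthetases higher and 16 lower (median -0.42). Asns was at -0.34 and Trib3 at -0.25 in the exact test, and log2 fold changes turned to -0.056 for Aars, -0.070 for Nars, -0.060 for Iars, -0.0043 for Cars and -0.17 for Tars. The median of all genes moved to -0.26 on this scale. With log2(TPM + 1) and log2(TPM + 0.1), 2279 and 2271 genes were higher and 7280 and 7263 lower. Both gave 8 ATF4 pathway genes lower (medians -0.39 and -0.39), 1 kinase higher (medians 0.21 and 0.22), and 0 synthetases higher and 18 lower (medians -0.46 and -0.47). There the exact test put Asns at -0.39 and -0.39 and Trib3 at -0.30 and -0.31, and log2 fold changes were -0.092 and -0.093 for Aars, -0.12 and -0.12 for Nars, -0.11 and -0.11 for Iars, -0.051 and -0.051 for Cars and -0.22 and -0.22 for Tars.

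Without control 1 to 3 the medians were -0.039 for ATF4 pathway genes and -0.079 for synthetases, Asns was at -0.22 in the exact test, and Atf5 and Qars turned to 0.070 and 0.023. Without control 4 to 6 the ATF4 pathway median was -0.0033, Asns was at 0.0040 in the exact test and 0.0081 in the model, and Gars at 0.041. Without Pfas CKO 2 and 4 Asns was at -0.18. The cause of these shifts was not tested. RLE scaling put Gars at 0.0093 and Qars at 0.0068, and DESeq2 put them at 0.0093 and 0.0069. Leaving out each library in turn gave -0.16 to -0.082 for Asns and -0.067 to 0.0077 for Trib3 in the exact test, and -0.040 to 0.013 for Gars, -0.028 to 0.017 for Qars and -0.064 to 0.0096 for Trib3 in the model. Requiring a fold of at least 1.5 left 2063 genes higher and 2167 lower, 3 and 3 ATF4 pathway genes, 0 kinases, and 0 and 2 synthetases.

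Libraries of the same replicate number correlated in their deviations from the group means by -0.04 to 0.17, so the numbers do not pair the libraries. With the replicate number as a block, all 26 member calls and 9113 of 9330 calls over all genes were kept. Depth limits Stc2 most, at a few CPM. The main limits are the near-identical libraries, the unstated treatment of control mice and the control sets that differ in their blank genes.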
